A study of Rattus norvegicus with 27 samples.

Results

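The genes described here encode the extracellular matrix and the proteases that cut it. They were chosen by name: collagens (Col followed by a digit), laminin chains (Lama, Lamb, Lamc), matrix metalloproteases (Mmp), their tissue inhibitors (Timp), the Adamts family, fibulins (Fbln), hyaluronan and proteoglycan link proteins (Hapln), and the single genes Fn1, Dcn, Bcan, Ncan, Vcan, Acan, Tnc, Tnr, Sparc, Sparcl1, Lum and Bgn. In all, 62 genes with 82 probe sets carried such a name, out of 9769 genes with a probe set of 1 symbol. Where a gene had several probe sets, the brightest one on average stood for it. Tnc, Tnr, Bgn, Mmp2, Mmp16 and Timp4 had no such probe set and were not analysed here.

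The arrays came from tail motor neurons of adult male Wistar rats, which were labelled with the retrograde tracer Fluorogold injected into muscle and the peritoneal cavity and then cut by laser from frozen sections of the sacral cord. The Spi-21 group (8 arrays) and the Spi-60 group (8 arrays) were taken 21 and 60 days after the cord was cut through at S2 and a short piece removed. The ShamC-21 group (6 arrays) and the ShamC-60 group (5 arrays) were taken on the same days after a laminectomy that left the dura closed. All rats received buprenorphine for pain relief. Each array holds RNA pooled from many neurons, amplified in a pair of rounds, and the labels call the arrays of a group biological replicates without tying any to an animal, litter or batch. A p-value here reflects how far these samples scatter, part of which may be technical. Values are log2 signals from RMA, which brings arrays to 1 scale and merges the probes of each set. Differences are transected minus sham in a limma fit over the 27 arrays, with their SE and with p adjusted over all 12913 probe sets, and a gene is called at an adjusted p under 0.05.

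Neurons sit in a matrix built mainly of hyaluronan, chondroitin sulphate proteoglycans of the lectican family, link proteins and tenascins. Around some neurons, motor neurons among them, this matrix condenses into perineuronal nets. Fibrillar collagens, decorin and lumican belong mostly to the meninges, blood vessels and scar, while laminins and type IV collagen form the basement membrane of vessels. Metalloproteases and Adamts enzymes cut these proteins, and Timp proteins block the metalloproteases.

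The promoters of 4 genes on which the results turn are shown as background to their values: Col16a1 and Adamts1, which were called at both days in opposite directions, and Col1a2 and Lum, which were high in the same few sham arrays. Each runs 5′ to 3′ from 250 bases before to 50 bases after the start of the gene in RefSeq on build GRCr8. Capitals mark matches on either strand to GGGCGG (the GC box), CCAAT and TATAAA. No marked matches overlapped. The Col16a1 window lies at chr5:147672846-147673145, plus strand, that of Adamts1 at chr11:38427335-38427634, minus strand, that of Col1a2 at chr4:33518307-33518606, plus strand and that of Lum at chr7:34245456-34245755, plus strand.
Col16a1: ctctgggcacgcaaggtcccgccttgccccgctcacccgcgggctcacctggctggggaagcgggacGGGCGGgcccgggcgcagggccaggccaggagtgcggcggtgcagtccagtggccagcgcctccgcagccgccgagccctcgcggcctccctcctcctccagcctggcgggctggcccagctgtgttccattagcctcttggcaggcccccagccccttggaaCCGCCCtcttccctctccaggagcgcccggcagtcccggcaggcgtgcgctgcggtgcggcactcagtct
Adamts1: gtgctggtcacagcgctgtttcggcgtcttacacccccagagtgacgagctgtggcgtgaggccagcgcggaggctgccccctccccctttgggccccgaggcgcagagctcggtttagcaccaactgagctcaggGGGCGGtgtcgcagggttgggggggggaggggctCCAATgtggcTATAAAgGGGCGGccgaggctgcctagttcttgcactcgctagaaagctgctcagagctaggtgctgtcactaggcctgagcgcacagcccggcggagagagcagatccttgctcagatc
Col1a2: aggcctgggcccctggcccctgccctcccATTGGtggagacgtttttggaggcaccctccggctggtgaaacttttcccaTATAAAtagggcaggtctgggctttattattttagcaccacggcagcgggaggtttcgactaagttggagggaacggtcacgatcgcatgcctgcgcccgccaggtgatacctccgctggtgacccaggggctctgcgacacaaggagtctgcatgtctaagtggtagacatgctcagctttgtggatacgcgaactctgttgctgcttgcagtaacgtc
Lum: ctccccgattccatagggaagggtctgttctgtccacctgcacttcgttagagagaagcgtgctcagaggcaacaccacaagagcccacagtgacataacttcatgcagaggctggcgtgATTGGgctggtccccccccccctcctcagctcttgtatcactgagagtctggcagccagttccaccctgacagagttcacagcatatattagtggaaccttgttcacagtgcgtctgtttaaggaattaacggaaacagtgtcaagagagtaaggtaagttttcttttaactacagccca
The Col16a1 window held GGGCGG and no TATAAA or CCAAT, the Adamts1 window held all 3, the Col1a2 window held TATAAA and CCAAT, and the Lum window held CCAAT. Of 27457 RefSeq promoter windows of this length, 34.9% held GGGCGG, 37.7% CCAAT and 14.3% TATAAA. A promoter was found for 49 of the 62 genes, and 24, 17 and 13 of these held the 3 motifs. The motif TGANTCA, bound by AP-1 proteins, was searched on both strands as well and matched 6 of the 49 windows, against 7.33% of all windows, and none of the 4 shown. These are matches of letters, not sites shown to be used.

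The mean of 6 measured motor neuron markers was high in all groups. Averaged over all arrays, Nefh, Nefm, Prph and Slc5a7 read 14.3, 13.6, 13.0 and 10.9. Slc18a3 read 7.54 and Isl1 6.09, which is below the median of all probe sets, 6.35. The list mean ran from 10.7 to 11.1 in Spi-21, from 10.8 to 11.1 in ShamC-21 and from 10.9 to 11.3 in Spi-60 arrays. In ShamC-60 it ran from 9.36 to 10.9, with the lowest value in replicate 4. At 60 days 3 of the 6 markers rose, beside 10.2% of all probe sets called higher. RNA of other cells was present as well, since the mean of 8 astrocyte markers lay between 7.97 and 9.75 over all arrays. At 21 days 3 of 8 astrocyte markers rose (Gfap by 1.07, Aldoc by 0.92 and Slc1a2 by 0.39). So did 2 of 6 oligodendrocyte markers (Mbp by 1.08 and Mag by 0.56). Both counts stand beside 11.3% of all probe sets called higher. The other markers of both lists were not called and differed by -0.06 (Mog) to 0.55 (Gja1). The part of these cells in the 21-day matrix rises was not tested. No marker was at 0. In such dissected samples a lower signal can come from fewer cells of a type or from less RNA per cell, which cannot be told apart. The 3′ minus 5′ difference of the beta-actin control probes ran from 2.86 to 3.60 in Spi-21 and 1.97 to 2.65 in ShamC-21 arrays, and from 2.75 to 3.77 in Spi-60 and 1.92 to 2.42 in ShamC-60 arrays. These control values thus moved with the operation without overlap, and their part in the results was not tested. For GAPDH the same difference was 0.985 to 1.46 in Spi-21 replicates 5 to 8 and 2.57 to 3.47 in replicates 1 to 4, and each of these sets was left out in turn. ShamC-60 replicates 1 and 4, which differ from the other sham arrays in the genes below, were left out together.

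At 21 days after transection the type XVI collagen gene Col16a1 rose and the matrix protease gene Adamts1 fell. Col9a2, Adamtsl5, Col5a1, Adamts7 and Sparc rose by 1.18- to 1.33-fold. Without Spi-21 replicates 1 to 4 the 21-day calls of Adamts1, Col9a2, Adamtsl5, Adamts7 and Sparc were lost. That of Col5a1 was lost without Spi-21 replicates 5 to 8. At 60 days Col16a1 and Adamts1 had moved the same way. The link protein gene Hapln2 and the protease gene Mmp11 rose at 60 days, and Col1a2, Col5a2 and Lum fell. These 3 falls rest on ShamC-60 replicates 1 and 4, and the 60-day Col16a1 call was lost without both. The Mmp11 call was lost without any 1 of 16 arrays. The remaining 50 genes were called at neither day. Over the 62 genes the median difference was 0.04 at 21 days and 0.02 at 60 days, beside 0.01 and 0.02 over all probe sets.

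In counts, 6 of the 62 genes rose and 1 fell at 21 days, where 22.6% of all probe sets were called, 11.3% higher and 11.2% lower. At 60 days 3 rose and 4 fell, where 19.1% of all probe sets were called, 10.2% higher and 8.92% lower. The matrix genes were thus called in 11.3% of cases at each day, a smaller share than that of all probe sets, and this difference in shares was not tested. The 21-day count was 3 without Spi-21 replicates 1 to 4, where 10.3% of all probe sets passed. The 60-day count was 2 without ShamC-60 replicates 1 and 4, where 6.17% of all probe sets passed, and 4 without Spi-60 replicate 1 or 2. Without ShamC-60 replicate 1 it was 4, and without replicate 4 it was 3. With array weights 7 genes were higher and 1 lower at 60 days, and a fit of the 60-day groups alone called 4. Many of these probe sets were dim: 38 of the 62 had a mean below the median of all probe sets, 6.35. Among the brighter 24 genes 5 were called at 21 days and 2 at 60 days, beside 27.2% and 28.5% of all probe sets at or above the median. Among the dimmer 38 genes 2 and 5 were called, beside 18% and 9.68% of the dimmer probe sets. The sign of the difference was the same at both days in 48 of the 62 genes, 77.4%, and in 77.4% of all probe sets, in comparisons that share no arrays but 1 estimate of the spread.

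**Figure D1:**
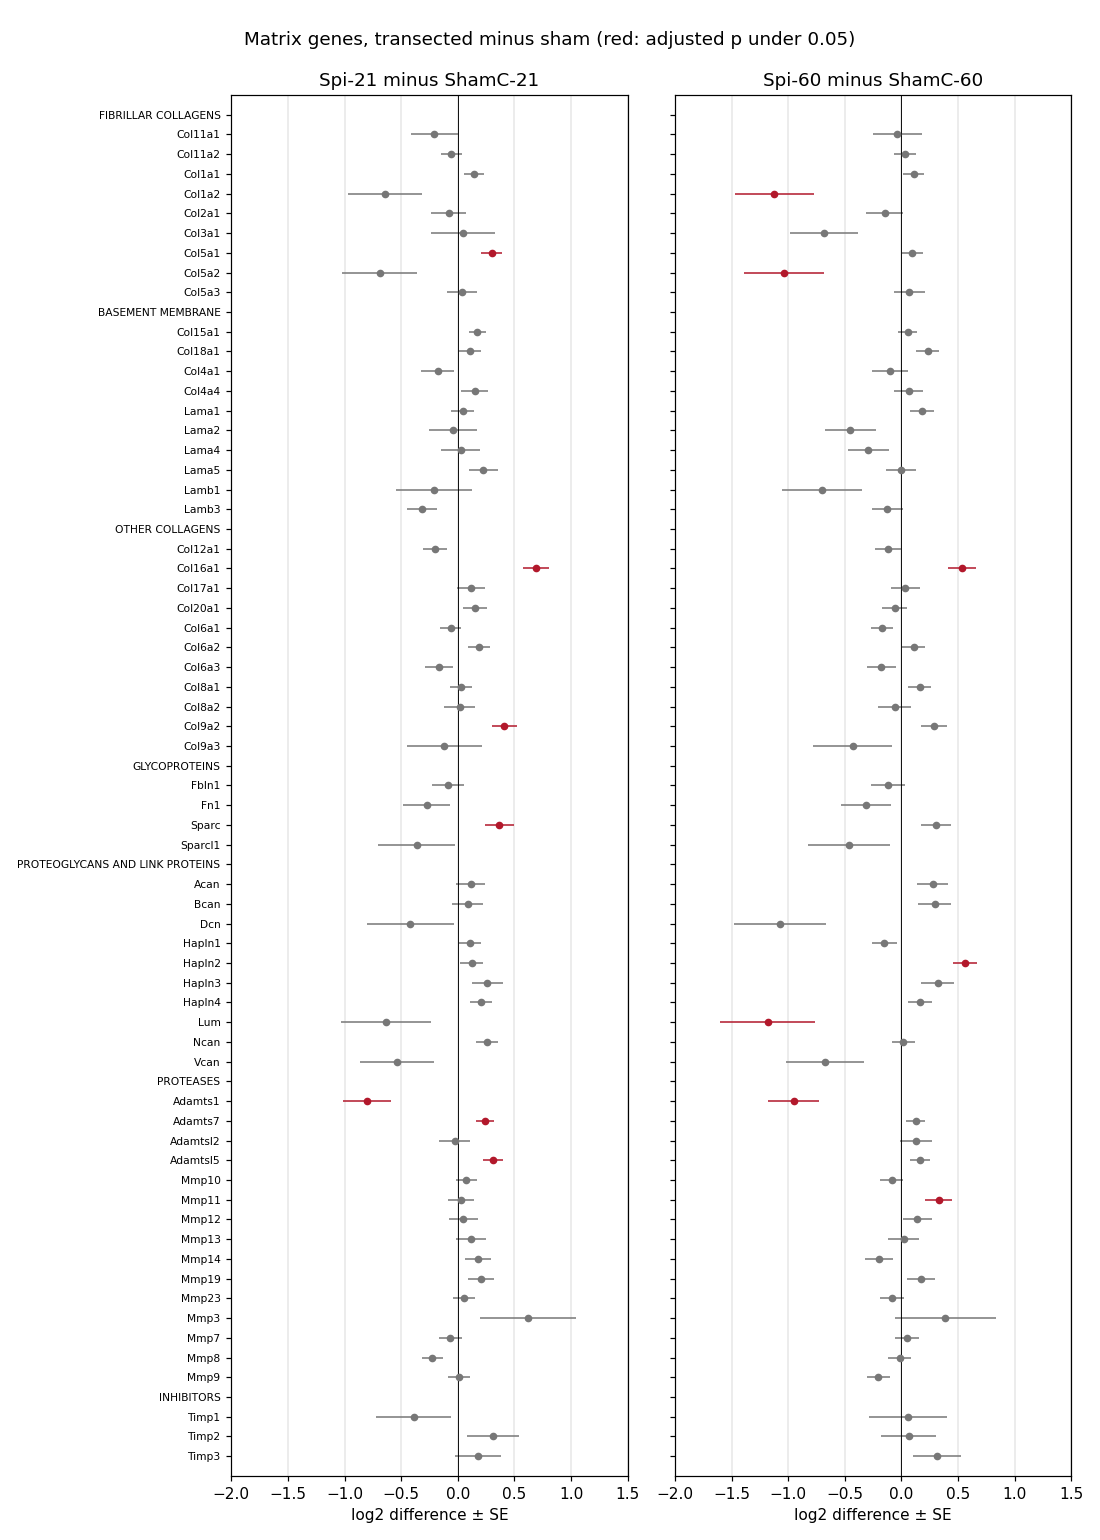
Log2 difference, transected minus sham, with its SE for each of the 62 matrix genes at 21 days (left) and 60 days (right), grouped by role; red points have an adjusted p under 0.05. Most points lie within 0.5 of 0, and the called genes are 7 at each day.

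Among the 11 collagens outside the fibrillar and basement membrane groups, Col16a1 (probe set 1390846_at) encodes a collagen of the fibril-associated type. Its log2 signal had a lowest, median and highest value of 7.32, 7.65 and 8.22 in Spi-21, against 6.79, 6.99 and 7.20 in ShamC-21 arrays. Each of the 8 transected arrays exceeded all 6 sham arrays. In Spi-60 arrays the values were 7.38, 7.58 and 7.93, against 7.00, 7.11, 7.07, 6.91 and 7.23 in the 5 ShamC-60 arrays, again without overlap. The rise was 0.69 ± 0.116 log2, 1.61-fold, at 21 days (adjusted p = 0.00021) and 0.54 ± 0.123, 1.45-fold, at 60 days (adjusted p = 0.00327). Without ShamC-60 replicates 1 and 4 the 60-day difference was 0.47 with an adjusted p = 0.0594.

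Col9a2 encodes a chain of type IX collagen, best known from cartilage. It read 7.35 to 8.08 (median 7.58) in Spi-21 and 7.05 to 7.35 (median 7.24) in ShamC-21 arrays. Each transected array lay above each sham array, but barely: the lowest Spi-21 value was 7.353 and the highest ShamC-21 value 7.348. The rise was 0.41 ± 0.111 log2, 1.33-fold (adjusted p = 0.00975). The highest Spi-21 values were those of replicates 1 and 3, 8.08 and 7.92, and without replicates 1 to 4 the difference was 0.25 (adjusted p = 0.153). At 60 days 7 of 8 Spi-60 arrays lay above every ShamC-60 array, and the difference of 0.29 ± 0.117 had an adjusted p = 0.0794. Transected and sham arrays did not overlap in 2 of the 62 genes at 21 days (Col16a1 and Col9a2), beside 5.3% of all probe sets, and in 2 at 60 days (Col16a1 and Adamts1), beside 8.19%.

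The other 9 collagens of this group, chains of types VI, VIII, IX, XII, XVII and XX, were not called at either day. Col12a1, which encodes a collagen of dense connective tissue, differed by -0.20 at 21 days in the probe set used (adjusted p = 0.161). A second probe set of Col12a1, 1398321_a_at, was higher by 0.48 ± 0.0981 (adjusted p = 0.00132), and the third differed by 0.13 (adjusted p = 0.392). The probe sets of this gene therefore disagree.

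**Figure D2:**
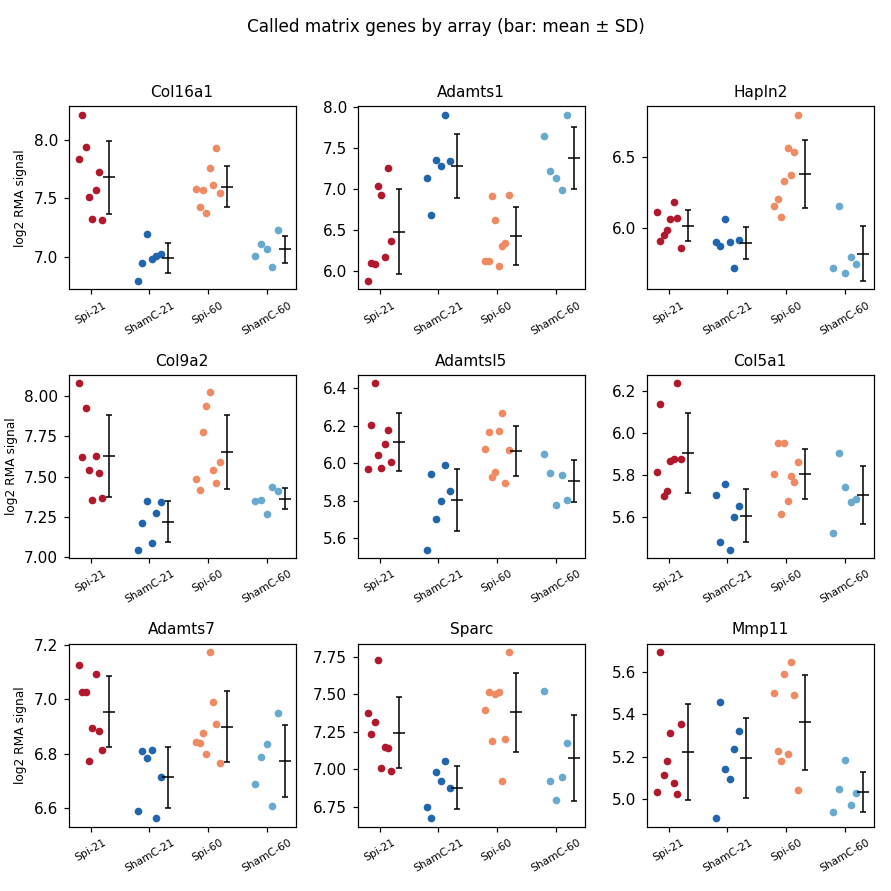
Log2 signal in every array for 9 called matrix genes, in the groups Spi-21, ShamC-21, Spi-60 and ShamC-60; points are arrays and bars give mean ± SD. Col16a1 is higher and Adamts1 lower in transected arrays at both days. For Hapln2 and Mmp11 most Spi-60 arrays lie above every ShamC-60 array.

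Fibrillar collagens, which form the tensile fibres of connective tissue, went in unlike directions. Of 9 such genes 1 rose at 21 days and 2 fell at 60 days, beside 22.6% and 19.1% of all probe sets called. Col5a1, a chain of type V collagen, read 5.70 to 6.24 (median 5.87) in Spi-21 and 5.44 to 5.76 (median 5.63) in ShamC-21 arrays, a rise of 0.30 ± 0.0889 (adjusted p = 0.0179). At 60 days it differed by 0.10 ± 0.0939 (adjusted p = 0.492). Without ShamC-21 replicate 4 the 21-day call was lost (adjusted p = 0.0505), as it was without Spi-21 replicates 5 to 8 (0.24, adjusted p = 0.0787).

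Col1a2, which encodes a chain of type I collagen, read 5.27 to 6.08 (median 5.70) in Spi-60 arrays. In the 5 ShamC-60 arrays it read 9.06, 6.22, 6.09, 7.26 and 5.41. Replicates 1 and 4 of the sham group were high and replicate 5 lay inside the transected range. The fall was 1.12 ± 0.345 on the log2 scale (-1.12, 2.17-fold, adjusted p = 0.0233). Leaving out ShamC-60 replicate 1 or 4 ended the call, and without both the difference was -0.22 (adjusted p = 0.595). In a fit of the 60-day groups alone the adjusted p was 0.0855. A second probe set fell by 0.72 ± 0.192 (adjusted p = 0.0101). It read 4.96 to 5.64 in Spi-60 and 5.50 to 7.17 in ShamC-60 arrays, and was not examined with arrays left out.

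Col5a2, another type V chain, read 5.37 to 6.59 in Spi-60 arrays, against 8.46, 6.75, 5.96, 8.23 and 5.73 in ShamC-60 arrays. Its fall was 1.04 ± 0.351 on the log2 scale (adjusted p = 0.0376), and without the same pair of sham arrays the difference was -0.16 (adjusted p = 0.805). Any of 6 single arrays ended this call when left out. At 21 days Col1a2 read 5.54 to 6.08 in Spi-21 and 6.05 to 7.24 in ShamC-21 arrays, with 6 of 8 transected arrays below every sham array. Its difference of -0.64 ± 0.327 had an adjusted p = 0.157 and that of Col5a2 was -0.69 ± 0.332 (adjusted p = 0.133). In these 21-day comparisons the wide spread of the ShamC-60 arrays enters the error, since the groups share 1 estimate. With ShamC-60 replicates 1 and 4 left out, the 21-day differences of Col1a2 and Col5a2 had adjusted p = 0.00668 and 0.0284. That fit kept ShamC-21 replicate 6, the highest array of its group for both genes (7.24 and 7.43). When single arrays were left out, the 21-day differences ran from -0.71 to -0.48 for Col1a2 and from -0.85 to -0.47 for Col5a2.

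Col3a1, the gene of type III collagen, was not called, with 4.85 to 5.53 in Spi-60 arrays and 7.84, 5.25, 5.48, 5.93 and 4.78 in ShamC-60 arrays (-0.68 ± 0.302, adjusted p = 0.111). Without ShamC-60 replicate 5 it was called at -0.95 (adjusted p = 0.0243), and without replicate 1 it differed by -0.19 (adjusted p = 0.578). Col3a1, Dcn and Lamb1 are described here because their values in these sham arrays were seen. The other fibrillar genes, Col1a1, Col2a1, Col5a3, Col11a1 and Col11a2, differed by at most 0.21 in size at either day without a call.

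Among the small leucine-rich proteoglycans, which bind and space collagen fibrils, Lum (lumican) fell at 60 days and Dcn (decorin) was not called. Lum read 4.60 to 5.22 (median 4.90) in Spi-60 arrays, against 8.41, 5.17, 5.04, 7.04 and 4.87 in ShamC-60 arrays. The fall of 1.18 ± 0.42 on the log2 scale had an adjusted p = 0.0471. With any 1 of 20 arrays left out the adjusted p rose above 0.05 and the call was lost. The difference was then -1.22 to -1.14 for 18 of them, -0.95 without ShamC-60 replicate 4 and -0.61 without ShamC-60 replicate 1. Without both of these sham arrays it was -0.10 (adjusted p = 0.89). Dcn read 4.88 to 5.59 in Spi-60 arrays, against 9.05, 5.26, 4.94, 6.86 and 5.26 in ShamC-60 arrays (-1.07 ± 0.405, adjusted p = 0.0626). Without ShamC-60 replicate 2, 3 or 5 Dcn was called, at -1.32, -1.40 and -1.32, while without replicate 1 it differed by -0.38 (adjusted p = 0.328).

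The high values of these genes fell in the same arrays. ShamC-60 replicate 1 had the highest signal of the 27 arrays for Col1a2, Col5a2, Col3a1, Lum and Dcn, and ShamC-60 replicate 4 and ShamC-21 replicate 6 took the next places in each of them. ShamC-60 replicate 1 was the highest array for 15 of the 62 matrix genes, 24.2%, beside 5.92% of all probe sets. For ShamC-60 replicate 4 the numbers were 3 genes, 4.84%, beside 11.7% of all probe sets. Markers of pericytes, smooth muscle and fibroblasts that are not matrix genes were highest in the same ShamC-60 arrays. The mean of the 9 measured of 11 listed ran from 6.02 to 6.25 in Spi-60 and from 6.15 to 6.87 in ShamC-60 arrays. It was 6.87 in replicate 1 and 6.33 in replicate 4. In ShamC-21 replicate 6 it was 6.24, inside the Spi-60 range. That was the highest ShamC-21 value and just above the Spi-21 arrays, which ran from 6.04 to 6.23. None of the 9 was called at 60 days. The mean of 4 measured endothelial markers was 6.70 in ShamC-60 replicate 1 and 6.03 to 6.18 in the other ShamC-60 arrays. ShamC-60 replicate 1 was also the highest of its group for the mean of the astrocyte (9.72), oligodendrocyte (9.64) and oligodendrocyte precursor (7.37) markers. ShamC-21 replicate 6 was likewise the highest of its group for these lists (9.15, 8.85 and 6.92) and for the endothelial list (6.24). The part of these cell types in the falls of Col1a2, Col5a2 and Lum was not tested.

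**Figure D3:**
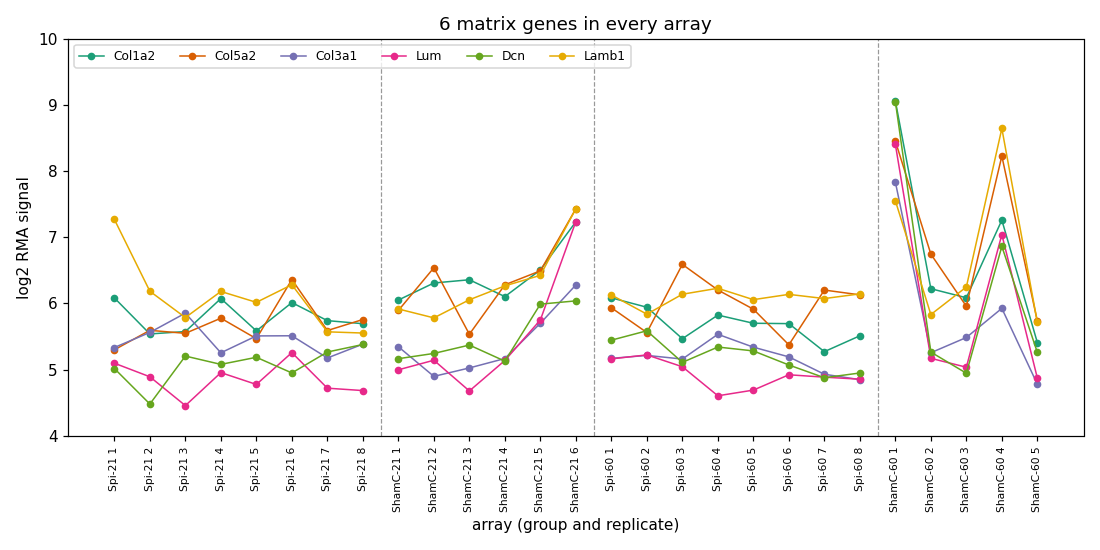
Log2 signal of Col1a2, Col5a2, Col3a1, Lum, Dcn and Lamb1 in each of the 27 arrays, ordered by group, with dashed lines between groups. The 6 genes have their 3 highest values in ShamC-60 replicates 1 and 4 and ShamC-21 replicate 6, while the Spi-60 arrays lie between 4.60 and 6.59.

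Basement membrane genes gave no call, beside 22.6% and 19.1% of all probe sets called at 21 and 60 days. The 10 measured, Col4a1, Col4a4, Col15a1, Col18a1 and the laminin chains Lama1, Lama2, Lama4, Lama5, Lamb1 and Lamb3, had a median difference of 0.03 at 21 days and -0.05 at 60 days. Their differences ran from -0.32 to 0.22 at 21 days and from -0.71 to 0.23 at 60 days. Lamb3, a laminin chain of epithelia, differed by -0.32 ± 0.13 at 21 days (adjusted p = 0.0777) and was called without Spi-21 replicates 1 to 4. Lamb1, the beta chain of the most widespread laminins, read 5.84 to 6.23 in Spi-60 arrays, against 7.55, 5.83, 6.25, 8.65 and 5.71 in ShamC-60 arrays (-0.71 ± 0.353, adjusted p = 0.159). Its highest Spi-21 array, replicate 1 at 7.27, stood above the 7 other arrays of that group, which reached 6.28.

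Lecticans and link proteins are the core of perineuronal nets. Of these 8 measured genes Hapln2 was called, at 60 days, beside 19.1% of all probe sets. Hapln2 encodes a link protein that in mouse brain gathers at nodes of Ranvier of myelinated axons. Its log2 signal read 6.08, 6.36 and 6.80 (lowest, median and highest) in Spi-60 arrays, against 5.72, 6.16, 5.68, 5.80 and 5.75 in ShamC-60 arrays. Here 6 of 8 transected arrays lay above every sham array, and ShamC-60 replicate 2 was the sham array that overlapped. The rise was 0.56 ± 0.105 log2, 1.48-fold (adjusted p = 0.000546), and 0.52 (adjusted p = 0.0149) without ShamC-60 replicates 1 and 4. At 21 days Hapln2 read 5.86 to 6.18 in Spi-21 and 5.72 to 6.06 in ShamC-21 arrays (0.12 ± 0.0993, adjusted p = 0.39). The effect at 60 days exceeded that at 21 days by 0.44 ± 0.144, which did not pass (adjusted p = 0.627). Of 6 measured oligodendrocyte markers Mag rose at 60 days, beside 10.2% of all probe sets called higher. Its other markers were not called and differed by -0.18 (Mog) to 1.04 (Mbp, adjusted p = 0.0745). The mean of the list ran from 8.44 to 9.38 in Spi-60 arrays, against 9.64, 8.36, 7.94, 8.41 and 7.94 in ShamC-60 arrays. ShamC-60 replicate 1 was thus the only sham array that reached the Spi-60 range. The part of oligodendrocytes in the Hapln2 result was not tested.

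Acan encodes aggrecan, the lectican most used to mark perineuronal nets. It read 7.03 to 7.63 (median 7.32) in Spi-21 and 7.02 to 7.73 (median 7.15) in ShamC-21 arrays, and 7.08 to 7.69 (median 7.21) in Spi-60 arrays, against 6.83, 7.13, 7.17, 6.66 and 7.39 in ShamC-60 arrays. The groups overlapped at both days. The differences of 0.11 (95% interval -0.15 to 0.38, adjusted p = 0.552) and 0.27 ± 0.135 (adjusted p = 0.153) were not called.

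Bcan, the gene of brevican, read 6.46 to 7.53 in Spi-21 and 6.85 to 7.08 in ShamC-21 arrays, with transected arrays both above and below all sham arrays (0.09 ± 0.136, adjusted p = 0.676). At 60 days it read 7.12 to 7.79 in Spi-60 arrays, against 7.32, 7.04, 7.08, 7.61 and 7.02 in ShamC-60 arrays (0.29 ± 0.144, adjusted p = 0.152). Ncan, the gene of neurocan, read 5.55 to 6.06 in Spi-21 and 5.34 to 5.73 in ShamC-21 arrays (0.26 ± 0.0982, adjusted p = 0.0575). It passed when 1 of 5 single arrays was left out, and at 60 days, with 5.46 to 5.98 (median 5.65) in Spi-60 arrays and 5.51, 5.85, 5.65, 5.56 and 5.64 in ShamC-60 arrays, it differed by 0.02 ± 0.104 (adjusted p = 0.929).

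Vcan, the gene of versican, spread widely within groups. It read 5.55 to 7.22 in Spi-60 arrays, against 7.93, 6.64, 5.91, 8.01 and 6.39 in ShamC-60 arrays, and 5.64 to 7.13 in Spi-21 and 5.85 to 7.66 in ShamC-21 arrays. The differences of -0.54 ± 0.328 and -0.67 ± 0.346 were not called (adjusted p = 0.242 and 0.171), and the other probe sets differed by -0.08 and 0.21 at 21 days and by 0.06 and 0.16 at 60 days. ShamC-60 replicates 1 and 4, the arrays high in collagens, were also the highest for Vcan in their group.

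The other link protein genes were not called. Hapln1, the link protein of nets and cartilage, read 5.41 to 6.01 (median 5.56) in Spi-21 and 5.40 to 5.65 (median 5.48) in ShamC-21 arrays (0.11 ± 0.101, adjusted p = 0.462). In Spi-60 arrays it read 5.04 to 5.60 (median 5.34), against 5.44, 5.39, 5.42, 5.90 and 5.41 in ShamC-60 arrays, where replicate 4 was high (-0.15 ± 0.106, adjusted p = 0.335). Hapln4, a brain link protein that in mouse takes part in nets of the brainstem and cerebellum, read 6.45 to 7.07 (median 6.72) in Spi-21 and 6.44 to 6.63 (median 6.55) in ShamC-21 arrays (0.21 ± 0.1, adjusted p = 0.135). At 60 days it read 6.46 to 7.01 (median 6.68) in Spi-60 arrays, against 6.32, 6.41, 6.58, 6.45 and 6.83 in ShamC-60 arrays (0.16 ± 0.106, adjusted p = 0.292). Its groups overlapped at both days. Hapln3 read 6.20 to 7.21 (median 6.97) in Spi-21 and 6.26 to 6.98 (median 6.62) in ShamC-21 arrays (0.26 ± 0.136, adjusted p = 0.164). In Spi-60 arrays Hapln3 read 6.68 to 7.24 (median 6.90), against 6.68, 6.61, 6.83, 6.12 and 6.82 in ShamC-60 arrays (0.32 ± 0.143, adjusted p = 0.116). Of the Spi-60 arrays 7 of 8 lay above every ShamC-60 array for Hapln3, without a call.

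**Figure D4:**
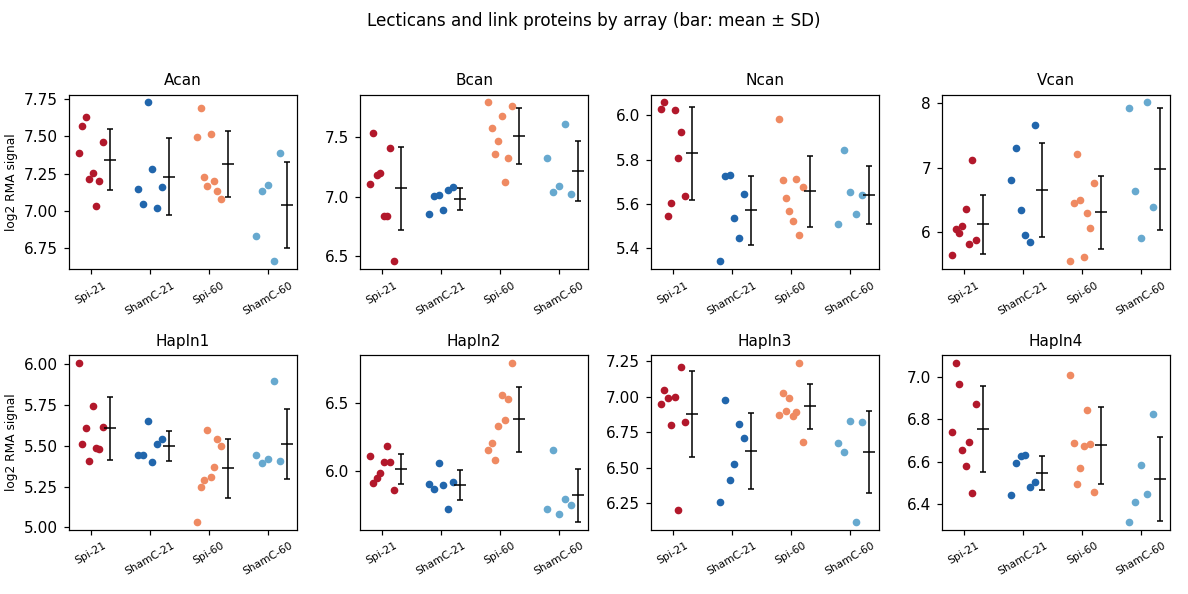
Log2 signal of the 4 lecticans (Acan, Bcan, Ncan, Vcan) and 4 link proteins (Hapln1 to Hapln4) in every array, in the groups Spi-21, ShamC-21, Spi-60 and ShamC-60, with mean ± SD. Hapln2 is higher in most Spi-60 arrays, with overlap, and the groups of the other genes overlap too.

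Among matrix glycoproteins 1 of 4 rose at 21 days, beside 22.6% of all probe sets called. Sparc, a secreted protein that binds collagen and alters contact between cells and matrix, read 6.99 to 7.73 (median 7.19) in Spi-21 and 6.67 to 7.06 (median 6.90) in ShamC-21 arrays, with 6 of 8 transected arrays above every sham array. The rise was 0.37 ± 0.128, 1.29-fold (adjusted p = 0.0387). Without any 1 of 8 arrays the difference was 0.30 to 0.38 with an adjusted p above 0.05 (up to 0.0906), and without Spi-21 replicates 1 to 4 it was 0.20 (adjusted p = 0.39). The second Sparc probe set differed by 0.17 (adjusted p = 0.585). At 60 days Sparc read 6.93 to 7.78 in Spi-60 arrays, against 7.52, 6.93, 6.79, 6.95 and 7.18 in ShamC-60 arrays (0.31 ± 0.135, adjusted p = 0.112), and without ShamC-60 replicate 1 it passed at 0.42.

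Sparcl1, also called hevin, is secreted by astrocytes and in mouse promotes the formation of synapses. It read 8.16 to 10.72 in Spi-21 and 9.69 to 10.40 in ShamC-21 arrays. In Spi-60 arrays it read 9.73 to 10.55, against 11.96, 9.95, 9.83, 11.69 and 9.51 in ShamC-60 arrays. The differences of -0.36 ± 0.343 and -0.46 ± 0.362 were not called (adjusted p = 0.466 and 0.387). Fn1, the gene of fibronectin, read 6.04 to 7.67 (median 6.51) in Spi-21 and 6.58 to 7.29 (median 6.79) in ShamC-21 arrays (-0.27 ± 0.208, adjusted p = 0.354). In Spi-60 arrays Fn1 read 6.55 to 7.33 (median 6.79), against 8.18, 7.01, 6.91, 6.95 and 6.82 in ShamC-60 arrays (-0.31 ± 0.22, adjusted p = 0.336). Its highest arrays were Spi-21 replicate 4 at 7.67 and ShamC-60 replicate 1 at 8.18. Fbln1, a fibulin of elastic fibres and basement membranes, differed by -0.09 and -0.12 without a call.

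Of 15 protease and Adamts-family genes 2 rose and 1 fell at 21 days, and 1 rose and 1 fell at 60 days. These counts stand beside 22.6% and 19.1% of all probe sets called. Adamts1 (probe set 1368223_at) encodes a secreted metalloprotease that cuts aggrecan and versican. Its log2 signal read 5.87, 6.27 and 7.25 (lowest, median and highest) in Spi-21 arrays and 6.67, 7.30 and 7.89 in ShamC-21 arrays. All 8 transected arrays lay below the sham mean, and 5 below every sham array. In Spi-60 arrays it read 6.06, 6.32 and 6.92, against 7.64, 7.21, 7.13, 6.99 and 7.90 in ShamC-60 arrays, without overlap. The fall was 0.80 ± 0.214 on the log2 scale (-0.80, 1.74-fold, adjusted p = 0.0092) at 21 days and 0.95 ± 0.226 (-0.95, 1.93-fold, adjusted p = 0.00438) at 60 days. The 60-day fall passed without ShamC-60 replicates 1 and 4 as well, at -0.99 (adjusted p = 0.0259), and the 21-day difference was -0.60 without Spi-21 replicates 1 to 4 (adjusted p = 0.104).

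Adamts7, a protease of cartilage matrix proteins, read 6.77 to 7.12 in Spi-21 and 6.56 to 6.81 in ShamC-21 arrays, with 7 of 8 transected arrays above every sham array. Its rise was 0.24 ± 0.08 (adjusted p = 0.0309) and stayed at 0.21 to 0.24 without any 1 of 7 arrays, with an adjusted p above 0.05 (up to 0.0802). Without Spi-21 replicates 1 to 4 it was 0.21 (adjusted p = 0.148). Adamtsl5, an Adamts-like protein without protease activity, read 5.97 to 6.43 in Spi-21 and 5.54 to 5.99 in ShamC-21 arrays, with 6 of 8 above every sham array. It rose by 0.31 ± 0.087 (adjusted p = 0.013), while its second probe set differed by 0.16 (adjusted p = 0.197). Without Spi-21 replicates 1 to 4 the Adamtsl5 difference was 0.26 (adjusted p = 0.0851). At 60 days Adamts7 differed by 0.12 ± 0.0844 (adjusted p = 0.311) and Adamtsl5 by 0.16 ± 0.0919 (adjusted p = 0.214).

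Mmp11, the gene of stromelysin-3, read 5.04 to 5.65 (median 5.36) in Spi-60 arrays, against 4.94, 5.04, 5.18, 4.97 and 5.03 in ShamC-60 arrays, with 6 of 8 transected arrays above every sham array. The rise of 0.33 ± 0.117 (adjusted p = 0.0486) kept a similar size, 0.29 to 0.37, when single arrays were left out, but its adjusted p was above 0.05 without any 1 of 16 arrays (up to 0.116). At 21 days Mmp11 differed by 0.03 ± 0.111 (adjusted p = 0.878).

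The gelatinase gene Mmp9 read 5.20 to 5.81 in Spi-21 and 5.24 to 5.68 in ShamC-21 arrays, and 5.10 to 5.64 in Spi-60 arrays, against 5.36, 5.59, 5.56, 5.65 and 5.54 in ShamC-60 arrays. The differences were 0.01 ± 0.0985 (adjusted p = 0.943) and -0.20 ± 0.104 (adjusted p = 0.168). Mmp14, which encodes a metalloprotease bound to the cell membrane, read 5.48 to 6.33 (median 5.76) in Spi-21 and 5.47 to 5.82 (median 5.69) in ShamC-21 arrays (0.18 ± 0.118, adjusted p = 0.28). In Spi-60 arrays Mmp14 read 5.44 to 6.06 (median 5.72), against 6.10, 5.86, 5.64, 5.85 and 6.04 in ShamC-60 arrays (-0.20 ± 0.124, adjusted p = 0.263), again with overlap. Mmp3, the gene of stromelysin-1, had wide groups, with 6.40 to 8.68 in Spi-21 and 5.87 to 7.34 in ShamC-21 arrays, and its difference of 0.62 ± 0.424 was not called (adjusted p = 0.301). In ShamC-60 arrays Mmp3 read 6.11, 7.96, 7.84, 4.66 and 6.86, the lowest in replicate 4.

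The Timp genes, whose products inhibit metalloproteases, were not called in the probe sets used. Timp1 read 6.17 to 7.65 in Spi-21 and 6.78 to 8.15 in ShamC-21 arrays, and 6.20 to 8.50 in Spi-60 arrays, against 6.56, 7.29, 7.73, 5.67 and 7.48 in ShamC-60 arrays (-0.39 ± 0.328 and 0.06 ± 0.346, adjusted p = 0.407 and 0.929). Timp2, which also helps Mmp14 to activate another metalloprotease, read 8.67 to 10.11 (median 9.68) in Spi-21 and 8.81 to 9.55 (median 9.31) in ShamC-21 arrays (0.31 ± 0.23, adjusted p = 0.336). In Spi-60 arrays Timp2 read 8.91 to 10.41 (median 9.47), against 10.17, 9.51, 9.46, 8.93 and 9.58 in ShamC-60 arrays (0.07 ± 0.243, adjusted p = 0.875). The groups of Timp1 and Timp2 overlapped at both days. Timp3, whose protein stays bound to the matrix, read 5.77 to 7.71 in Spi-21 and 6.47 to 7.25 in ShamC-21 arrays (0.18 ± 0.2, adjusted p = 0.546), with its lowest array in Spi-21. At 60 days it read 6.83 to 7.52 (median 7.12) in Spi-60 arrays, against 7.38, 6.56, 6.60, 7.02 and 6.45 in ShamC-60 arrays (0.31 ± 0.211, adjusted p = 0.307).

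A second Timp3 probe set, 1375138_at, gave another picture. It read 7.06 to 7.67 in Spi-21 and 6.17 to 6.97 in ShamC-21 arrays, without overlap, and 6.34 to 7.32 in Spi-60 and 6.09 to 6.98 in ShamC-60 arrays. It rose by 0.95 ± 0.161 at 21 days (adjusted p = 0.000222) and by 0.50 ± 0.17 at 60 days (adjusted p = 0.0402). The remaining Timp3 probe set differed by 0.04 and 0.09 without a call. Its 3 probe sets therefore disagree on whether Timp3 changed.

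**Figure D5:**
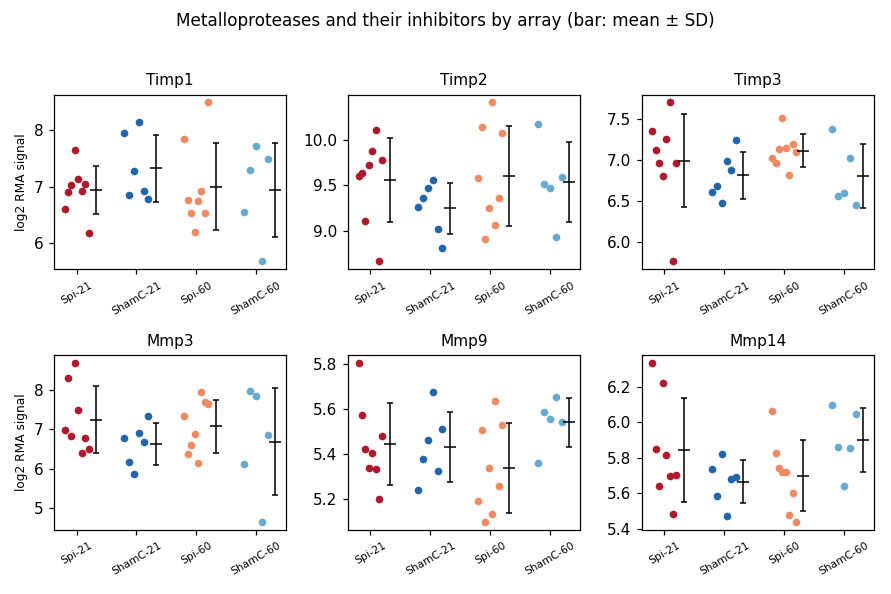
Log2 signal of Timp1, Timp2, Timp3 (the probe set with the highest mean), Mmp3, Mmp9 and Mmp14 in every array, in the groups Spi-21, ShamC-21, Spi-60 and ShamC-60, with mean ± SD. The groups overlap in all 6 genes.

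Genes that act on the matrix without being part of it were counted from 3 lists. Of 17 measured other proteases and inhibitors 1 rose and 3 fell at 21 days, and 2 rose and 2 fell at 60 days. These 4 of 17 at each day stand beside 22.6% and 19.1% of all probe sets, so the count is near that share. Bsg, which encodes basigin, an inducer of metalloproteases, rose by 0.86 ± 0.125 at 21 days (adjusted p = 4.27e-05) and 1.30 ± 0.132 at 60 days (adjusted p = 2e-07). Reck, a membrane-bound inhibitor of metalloproteases, fell by 0.88 ± 0.249 (adjusted p = 0.0134) and 0.75 ± 0.263 (adjusted p = 0.0438), and the cathepsin gene Ctsl fell by 0.67 and 1.04. Plat, the gene of tissue plasminogen activator, fell by 0.62 at 21 days, and Adam15 rose by 0.76 at 60 days.

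Of 13 measured matrix synthesis enzymes 1 rose and 1 fell at 21 days, and 2 rose at 60 days, 2 of 13 at each day beside 22.6% and 19.1% of all probe sets. Xylt2, which starts the sugar chains of proteoglycans, rose by 0.71 ± 0.189 and Ext1, which extends heparan sulphate, fell by 0.65 ± 0.149 at 21 days (adjusted p = 0.00944 and 0.0032). Chpf, which helps to extend chondroitin sulphate, rose by 0.76 ± 0.174 and Ndst1, a heparan sulphate enzyme, by 0.40 ± 0.114 at 60 days (adjusted p = 0.00345 and 0.0161).

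The receptor list held 28 measured genes, of which 4 rose and 3 fell at 21 days and 1 rose and 2 fell at 60 days. These 7 and 3 of 28 stand beside 22.6% and 19.1% of all probe sets. The syndecan gene Sdc3 (0.32), the Nogo receptor gene Rtn4r (0.33), Itgam (0.32) and Itgb4 (0.25) rose at 21 days, and the receptor phosphatase gene Ptprf fell by 0.48. At 60 days the integrin gene Itgb5 rose by 0.34 and the dystroglycan gene Dag1 fell by 0.46. The name pattern also took in Itgb1bp1 and Itgb3bp, which are not receptors and made up the other falls (0.80 and 0.88 at 21 days, 0.84 for Itgb3bp at 60 days). Itgam is also a marker of microglia. Of the 10 measured microglial markers 3 rose at 21 days, beside 11.3% of all probe sets called higher. These were Itgam itself, C1qb (0.61) and Trem2 (0.34). The other markers were not called and differed by -0.89 (Aif1) to 0.27 (C1qa). The mean of the list was 6.43 in Spi-21 and 6.34 in ShamC-21 arrays. The part of microglia in the Itgam rise was not tested.

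Between days the matrix genes gave no call. The transection effect at 60 days differed from that at 21 days for 0 of the 62 genes and for 0% of all probe sets in the limma fit, with 2 matrix genes at an unadjusted p under 0.05. The smallest p were those of Hapln2 (0.44 ± 0.144, adjusted p = 0.627), Mmp14 (-0.38 ± 0.171, adjusted p = 0.684) and Mmp11 (0.30 ± 0.161, adjusted p = 0.754). Spi-60 against Spi-21 arrays gave 0 called matrix genes, with 3 at an unadjusted p under 0.05 and 0.0852% of all probe sets called. The smallest p there were those of Hapln2 (0.36 ± 0.092, adjusted p = 0.0888), Bcan (0.44 ± 0.126, adjusted p = 0.12) and Hapln1 (-0.25 ± 0.0932, adjusted p = 0.235). ShamC-60 against ShamC-21 arrays gave 0 called matrix genes, 0 at an unadjusted p under 0.05, and 0% of all probe sets called. The smallest p were those of Dcn (0.79 ± 0.43), Col8a2 (0.28 ± 0.153) and Col5a2 (0.66 ± 0.372), each with an adjusted p = 0.999 in limma; Dcn and Col5a2 were high in ShamC-60 replicates 1 and 4. At 21 days Dcn read 4.48 to 5.38 (median 5.13) in Spi-21 and 5.13 to 6.04 (median 5.31) in ShamC-21 arrays.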

How the data were processed

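Per the labels' protocols, RNA of laser-dissected, Fluorogold-labelled motor neurons was amplified for Affymetrix rat expression arrays. The deposited values are log2 signals per probe set, made with RMA per the submitters' processing notes (version not given in the sources here). The 27 arrays had medians between 6.31 and 6.41. The 6 actin and GAPDH control probe sets were left out of tests. Gene symbols came from the platform annotation, and RefSeq changed 0 of 62 symbols.

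Tests used limma 3.58.1 in R 4.3.3 (lmFit and eBayes, no covariates, 4 groups sharing 1 estimate of the spread), two-sided, with Benjamini-Hochberg adjustment over 12913 probe sets. The fit was tested on simulated data. Arrays have no count depth, so the number of arrays limits the precision. Signals of different probe sets were not compared as amounts. Plots were made with Python 3.11.15 and matplotlib 3.10.9.

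Named genes are those called at 21 or 60 days, the 12 with the smallest p at either day, a fixed set of net, protease and inhibitor genes, and Col3a1, Dcn and Lamb1, which were added after values were seen; the members and lists were chosen with earlier results of these data known. Arrays share replicate numbers, which the labels do not tie to an animal or batch. Of 35 same-numbered pairs 9 deviated together with a correlation over 0.1. Others deviated in opposite directions, and the correlations ranged from -0.31 to 0.33. Alternatives were the replicate block, array weights, quantile normalization, a signal filter, only the groups compared, an intensity trend, other probe sets, and arrays left out.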

Additional observations from a re-analysis of the deposited data

Results flagged for a closer look

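In 10 of 116 sets of arrays (29 genes in 4 groups) the highest or lowest array stood apart from its group by Dixon's criterion, which chance alone meets in about 1 of 20 sets. Fn1 was high in Spi-21 replicate 4 (7.67, next 6.62) and in ShamC-60 replicate 1 (8.18, next 7.01). Lamb1 was high in Spi-21 replicate 1 (7.27, next 6.28) and low in Spi-60 replicate 2 (5.84, next 6.06). Spi-21 replicate 6 was high for Col5a2 (6.36, next 5.78) and low for Hapln3 (6.20, next 6.80). Timp3 was low in Spi-21 replicate 7 (5.77, next 6.81). Acan was high in ShamC-21 replicate 3 (7.73, next 7.28), Hapln1 in ShamC-60 replicate 4 (5.90, next 5.44), and Hapln2 in ShamC-60 replicate 2 (6.16, next 5.80).

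No gene checked had a transection effect called as different between the days, or opposite in every array.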

How the results depend on the processing

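The 21-day count of 7 called genes was 5 to 8 without single arrays and 3 (Col16a1, Col5a1 and Lamb3) without Spi-21 replicates 1 to 4. The 60-day count of 7 was 3 to 8 without single arrays. It was 4 without Spi-60 replicate 1 or 2 (Adamts1, Col16a1, Col1a2 and Hapln2), 4 without ShamC-60 replicate 1 (Adamts1, Col16a1, Hapln2 and Sparc), 3 without ShamC-60 replicate 4 (Adamts1, Col16a1 and Hapln2) and 2 without both of these sham arrays (Adamts1 and Hapln2), where 6.17% of all probe sets passed. It was 4 with only the groups compared and 2 with the probe sets at or above the median signal, which leaves fewer genes to test. Array weights gave 7 higher and 1 lower at 60 days in place of 3 and 4. Spi-60 against Spi-21 gave 1 gene, Bcan, without Spi-21 replicates 1 to 4, and stayed at 0 without single arrays, as did the ShamC comparison and the difference of effects. The samples share only a number, and with the replicate block 7 genes were called at 21 days and 6 at 60 days, where Mmp11 no longer passed (0.33, adjusted p = 0.064).

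These uncalled differences changed sign. At 21 days, Mmp9 with array weights (-0.00118), quantile normalization (-0.0167) and its second probe set (-0.0958); Lamb1 without Spi-21 replicates 5 to 8 (0.0428); and without Spi-21 replicates 1 to 4 Bcan (-0.0957), Col3a1 (-0.00726), Mmp11 (-0.00343), Mmp9 (-0.0776) and Sparcl1 (0.0139). At 60 days, with array weights Ncan (-0.0593), Sparcl1 (0.0895), Timp1 (-0.43) and Timp2 (-0.055); Ncan with quantile normalization (-0.012); without ShamC-60 replicates 1 and 4 Col3a1 (0.000245), Dcn (0.0507), Lamb1 (0.162), Ncan (-0.0552), Sparcl1 (0.36) and Timp1 (-0.50); and in second probe sets Sparc (-0.22) and Vcan (0.0628). Without single arrays the 21-day differences ran from -0.0555 to 0.221 for Col3a1, -0.373 to 0.0169 for Lamb1, -0.0387 to 0.0818 for Mmp11 and -0.0391 to 0.0615 for Mmp9, and the 60-day differences from -0.0298 to 0.068 for Ncan, -0.262 to 0.251 for Timp1 and -0.0838 to 0.225 for Timp2. The cause of these changes was not tested. Most of the 62 probe sets were dim, which limits what a difference can show.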
